A study of Drosophila melanogaster with 2 samples.

Results

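Peaks of the zinc finger protein charlatan at upstream promoters that serve a single gene are described here. A peak was a member if its summit lay within 500 bp of a protein-coding transcription start site (TSS), if every protein-coding TSS within 1000 bp belonged to 1 gene, and if the nearest TSS was at most 500 bp from the most upstream TSS of that gene. Of the 4537 summits in the set thresholded by irreproducible discovery rate (IDR), 838 (18.5%) were members, and they lay at 805 genes. The other promoter summits of the thresholded set were 367 at internal TSSs of single genes and 1140 at promoters where TSSs of several genes stand close together. The background was 2610 summits of the relaxed pooled list in the same class of promoter that overlapped no thresholded peak.

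The peak lists were made by ChIP-seq, sequencing of immunoprecipitated chromatin, from whole embryos of Drosophila melanogaster, both sexes mixed and 0 to 24 h old. The fly line carries chn fused at its C-terminal end to eGFP, and the tagged protein was precipitated with an antibody against GFP. The 2 biological replicates form 1 group, and the study holds no contrast between conditions. Every tissue and stage of these 24 h is pooled in a sample, and a peak cannot be assigned to a cell type.

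Charlatan is known as a regulator of neural development in the fly, where it acts with proneural helix-loop-helix factors in sensory organ formation, and it has been compared with the vertebrate neuronal repressor REST. An upstream promoter is the stretch before the first TSS of a gene, where the core promoter and short binding sites for general factors lie close together. In flies these sites include the DNA replication-related element (DRE), which Dref binds, GAGA repeats, which Trl and Clamp bind, and core promoter motif 1, which M1BP binds. E-boxes are the sites of helix-loop-helix proteins.

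The following stretches, which reach 50 bases to each side of a member summit, are shown because they carry the short sequences on which the comparison of members with background turns. The first pair shows AGTGTTG, the 7-mer with the smallest p-value, the second pair the GAGA repeat, the third pair the DRE and the last pair the E-box CAGCTG, which was about as frequent at members as in the background. For each motif they are the strongest eligible members whose stretch overlaps no annotated exon. Each is written on the strand of its gene, 5′ to 3′, with the named motif on either strand in capitals, and was read from the RefSeq copy of the Release 6 genome (dm6).
RpL23A: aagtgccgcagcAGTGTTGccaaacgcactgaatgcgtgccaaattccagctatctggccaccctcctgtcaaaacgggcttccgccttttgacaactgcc
Unr: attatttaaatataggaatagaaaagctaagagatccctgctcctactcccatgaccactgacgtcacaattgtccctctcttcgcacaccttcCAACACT
CG1907: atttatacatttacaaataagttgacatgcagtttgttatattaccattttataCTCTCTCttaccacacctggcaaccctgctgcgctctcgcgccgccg
Hsp26: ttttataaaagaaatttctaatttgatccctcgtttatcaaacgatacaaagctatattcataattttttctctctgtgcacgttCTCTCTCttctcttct
htk: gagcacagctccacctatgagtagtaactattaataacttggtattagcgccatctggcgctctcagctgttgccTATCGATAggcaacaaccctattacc
kibra: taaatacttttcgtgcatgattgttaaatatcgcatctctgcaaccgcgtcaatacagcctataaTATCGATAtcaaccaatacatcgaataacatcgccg
CG3009: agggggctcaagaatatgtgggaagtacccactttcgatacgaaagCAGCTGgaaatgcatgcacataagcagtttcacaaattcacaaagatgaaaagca
CG6345: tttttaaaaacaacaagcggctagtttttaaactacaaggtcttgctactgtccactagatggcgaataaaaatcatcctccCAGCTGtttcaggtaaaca

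These stretches lie at RpL23A, a ribosomal protein gene (chr3L:1668663-1668763, minus strand), and Unr, which encodes an RNA-binding protein of dosage compensation (chr3L:8442389-8442489, minus strand). They lie at CG1907 (chr3R:29618880-29618980, plus strand) and the small heat shock protein gene Hsp26 (chr3L:9377465-9377565, minus strand). The DRE stretches lie at htk (chrX:18843515-18843615, plus strand) and at kibra, an upstream component of the Hippo pathway (chr3R:14724314-14724414, minus strand). The E-box stretches lie at CG3009 (chrX:4666975-4667075, minus strand) and CG6345 (chr3R:10416082-10416182, minus strand). The 8 summits were 58 to 325 bp upstream of their TSS, with Unr nearest and CG3009 farthest. Their signal values were 358.0 at RpL23A, 237 at Unr, 264 at CG1907, 186 at Hsp26, 196 at htk, 127 at kibra, 473 at CG3009 and 232 at CG6345. The CG1907 stretch held 4 of the 10 enriched 7-mers described below, all of the CT-repeat kind, and RpL23A held AGTGTTG and AACACTG, which overlap.

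The signal value was deposited with each peak, without a statement that it is scaled for depth, and it served only for ranks and descriptions inside 1 list. Read counts are not listed, the depth is unknown, and intervals given for shares cover counting error over summits only. The 838 members had a median signal of 112, from 71.5 to 1972. The median was 116 at internal promoters of single genes, 123 at promoters of several genes and 108 away from promoters. Of the members, 185 (22.1%) were among the 1000 strongest thresholded summits. Background summits had signals from 20.5 to 71.4, and this gap comes from the rule and is no result.

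Most members were strong in both replicates. Of the 838, 610 (72.8%, 95% Wilson interval 69.7 to 75.7%) had a summit within 100 bp among the 4537 strongest of each replicate. The share among the other thresholded summits was 72.3%, a difference of 0.476 percentage points with a Newcombe 95% interval from -2.94 to 3.73. Replicate 1 placed 88.4% and replicate 2 placed 82.7% of members in its own strongest 4537, and 14 members were in neither. A summit within 100 bp was found in both relaxed lists for 798 members. Across these 798, which share the same libraries and were selected with both, Spearman's rho of the replicate signals was 0.722 and Pearson's r on the log2 scale 0.804. The pooled signal comes from the same libraries, and the weakest members lie near the limit of 4537 peaks, so agreement by signal is a description that the selection in part fixes. With the members cut by signal into 4 groups of 209 or 210, 100% of the strongest group and 24.4% of the weakest group were among the strongest of both replicates.

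**Figure D1:**
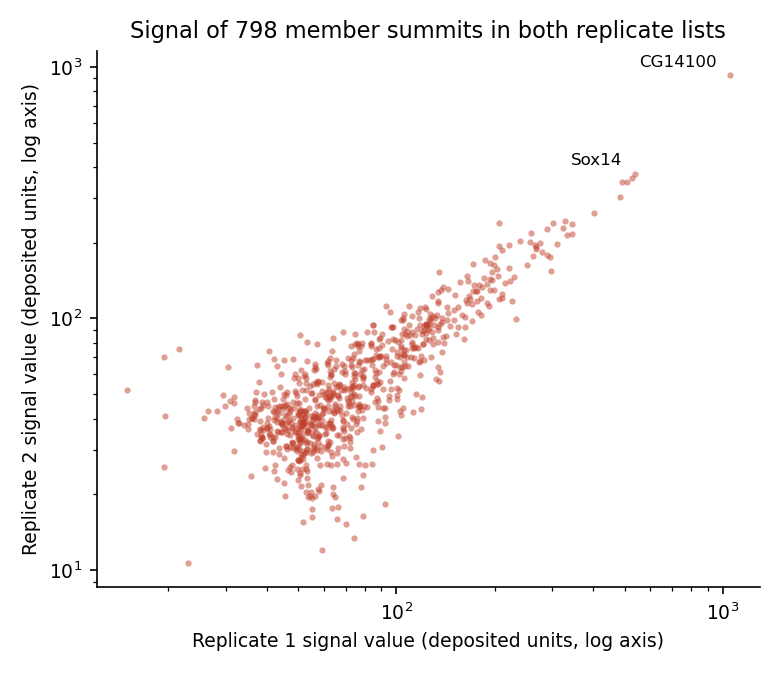
Signal values of the 798 member summits matched in both relaxed replicate lists, replicate 2 against replicate 1, in deposited units on log axes. CG14100 stands at the upper right with 1050 in replicate 1 and 927 in replicate 2, and the spread is widest at low signal.

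The strongest member stood far above the rest. It lay 96 bp upstream of the TSS of CG14100 (FBgn0036889, chr3L:19590427-19590817), with a signal of 1972, and ranked 1 of all thresholded peaks, 2 in replicate 1 and 1 in replicate 2. The next was at Sox14 (FBgn0005612, chr2R:23978378-23978729), which encodes a Sox-family transcription factor of the ecdysone response, with a signal of 917 and a summit 244 bp upstream. It ranked 19 in the pool, 16 in replicate 1 and 22 in replicate 2. CG18549, with a signal of 890.2, and CG13921, with a signal of 859.7, followed, with summits 114 and 118 bp upstream. The summit at the glutathione S-transferase gene GstE13 had a signal of 833 and lay 59 bp inside the gene.

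Of the 15 strongest members, 13 had their summit upstream of the TSS, and the exceptions were GstE13 and CG31612, whose summit lay 438 bp downstream. Signals were 792 at CG31145, 669.5 at Tina-1, 578 at the bZIP factor gene Atf3 and 573 at Hpf1, which encodes a cofactor of poly(ADP-ribose) polymerase. They were 567 at TRAM, a gene of protein entry into the endoplasmic reticulum, 553 at brwl, 551 at CG11857, 542 at the phosphoserine phosphatase gene aay, 515 at RluA-1 and 504 at CG31612. All 15 were within the first 98 peaks of replicate 1 and the first 111 of replicate 2. The weakest 3 members were at Dh31-R, the receptor gene of a diuretic hormone, CREG and the actin gene Act87E, each with a signal of 71.5. Act87E ranked 5334 in replicate 1 and 4351 in replicate 2, and the weak Dh31-R summit ranked 11352 in replicate 1 and 29003 in replicate 2.

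There were 772 genes with 1 member and 33 with a pair, and 26 neighbouring member intervals overlapped. The summits of a pair were 199 to 1066 bp apart, and in 19 of the 33 genes they were 200 to 210 bp apart. These spacings lie at the lower end of the range. Whether peak calling sets this lower end was not tested, so they are not read as paired binding sites. The pair with the highest summed signal was at Atf3, with signals of 578 and 96.3 at 171 and 376 bp upstream. At CG11151 signals of 457 and 161 lay 185 bp upstream and 476 bp downstream, and at Rme-8, an endocytic chaperone gene, signals of 481 and 107 lay 144 and 351 bp upstream. At the limit of 500 bp, the last members were CG6602 at 490 bp, CG43066 at 493 bp and CG10348 at 494 bp. The first summits beyond it were at E(spl)m7-HLH and peb, both at 501 bp, and at wech at 502 bp.

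Members stood upstream of the TSS, while background summits stood on both sides of it. Counted from the TSS with negative values upstream, the median position was -88.5 bp at members, with quartiles at -186.5 and -16.25 bp, and -5 bp in the background, with quartiles at -139.5 and 170.0 bp. Of the members, 81.4% (682 of 838, 78.6 to 83.9%) were upstream, against 51.1% (1334 of 2610, 49.2 to 53.0%) of the background, a difference of 30.3 points (26.9 to 33.4). Summits 1 to 200 bp upstream made up 58.4% of members and 32.7% of the background. Summits more than 100 bp downstream made up 8.59% of members and 31.0% of the background. The share within 100 bp of the TSS on either side was 46.2% at members and 39.1% in the background, a difference of 7.10 points (3.26 to 11.0).

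**Figure D2:**
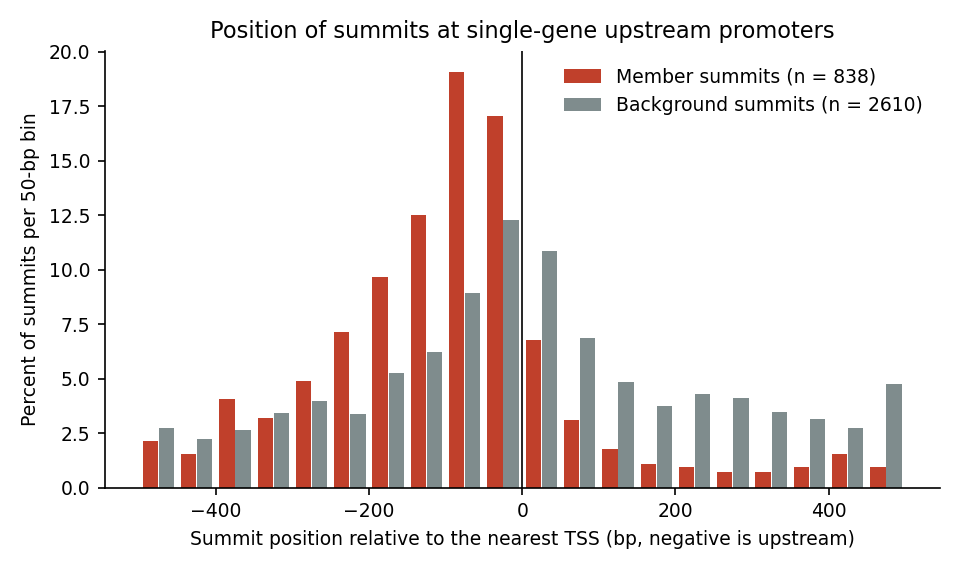
Percent of summits in each 50-bp bin of position relative to the nearest TSS, for the 838 member summits (left bar of each pair) and the 2610 background summits (right bar); negative positions are upstream. The highest member bin, 100 to 50 bp upstream, holds 19.1% of members, and 8.93% of background summits fall there.

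The same shift appeared in the annotation and the base composition under the summits. An annotated exon held 23.7% of member summits and 48.4% of background summits, and intergenic sequence held 64.4% of members and 40.3% of the background. Introns held 11.8% of members and 11.4% of the background. Windows of 201 bp around the summit had a mean GC content of 40.7% ± 8.22 at the 838 members and 45.6% ± 9.42 at the 2610 background summits (SD over summits). The X chromosome held 16.5% of members and 16.6% of the background, a difference of -0.161 points (-2.94 to 2.84).

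Compared with the other promoter classes, members differed in distance to the TSS, while the interval of the difference in upstream share includes 0. The upstream share was 81.4% at members and 82.0% at internal promoters, a difference of -0.632 points (-5.17 to 4.30), and 80.9% at promoters of several genes, a difference of 0.507 points (-3.02 to 3.96). Within 100 bp of the TSS lay 46.2% of members, 21.5% of summits at internal promoters and 67.3% of summits at promoters of several genes. Both differences to members, of 24.7 points (19.1 to 29.8) and of -21.1 points (-25.4 to -16.7), had intervals that exclude 0. Where several TSSs stand close together a summit lies nearer to 1 of them by construction, and how much of the second difference this makes was not tested.

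The annotation held 8057 upstream promoters of single genes that meet the rule at the most upstream TSS. A member lay at 789 of them (9.79%, 9.16 to 10.5%), only a background summit at 2121 (26.3%) and neither at 5147 (63.9%). A further 16 member genes did not meet the rule at their most upstream TSS and are not among the 8057. Neither means no summit of this class, and a summit of another class or more than 500 bp from the TSS may still lie near such a promoter. A promoter with no listed summit cannot be told from one bound below detection.

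Promoters with a member belonged to longer genes with more start sites. The median gene span was 4267 bp for the 789 genes with a member, 3551 bp with a background summit only and 1748 bp with neither. In 4 groups of gene span of about equal size, from the shortest to the longest, 3.32%, 7.36%, 12.9% and 15.6% of the promoters had a member. The share was 7.58% for genes with 1 annotated TSS, 16.4% with 2 or 3 and 19.0% (14.8 to 24.2%) with 4 or more. Genes known by a name had a member in 13.6% of cases (12.6 to 14.7%), and genes known only by a CG number in 5.51% (4.83 to 6.28%). The share on the X chromosome was 9.79%, and on the arms of chromosomes 2 and 3 it was 9.58 to 10.5%. Chromosome 4 had a member at 1 of its 59 promoters.

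Sequence was not used to choose the members, and 10 of the 8192 7-mers (0.122% of all tested) were more frequent in member windows than in background windows of like GC content. The test was an exact conditional test over GC strata of 2% with Benjamini-Hochberg adjustment over all 7-mers, and a call also needed an odds ratio of at least 1.5. The units are summits, so the p-values measure the spread over summits and not between embryos. A single 7-mer, CTCCTCC, was less frequent (0.0122% of all tested). It was in 4 member windows and 116 background windows (odds ratio 0.165, 95% interval 0.0593 to 0.456, exact test, adjusted p = 0.0123). Without replicate 1 its odds ratio was 0.395, and the exact test did not call it (adjusted p = 0.465). At an unadjusted p under 0.05 there were 288 7-mers above and 248 below an odds ratio of 1.

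The clearest of them was AGTGTTG. It was in 92 member windows (11.0%) and 109 background windows (4.18%), an odds ratio of 2.40 (1.79 to 3.22, exact test, adjusted p = 3.78e-05), and in 4.0% of windows centred on the TSS of all 8057 promoters. AACACTG, which overlaps it, was in 8.83% of member windows and 3.60% of background windows (odds ratio 2.19, 1.59 to 3.02, exact test, adjusted p = 0.0040). Either of the pair was in 13.2% (11.1 to 15.7%) of member windows and 5.98% (5.13 to 6.95%) of background windows. Joined, they give the 8-mer CAGTGTTG, which was chosen after its values were seen and has no test. It was in 55 member windows (6.56%) and 44 background windows (1.69%), and in 1.68% of the windows at all promoters. At internal promoters its share was 4.36% and at promoters of several genes 8.33%, and both intervals of the difference to members include 0.

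At members AGTGTTG was densest within 49 bp of the summit. It was picked for its excess within 100 bp of these same summits, so a lower density beyond 100 bp is in part given by that choice. It occurred 0.731 times per kb within 24 bp of member summits and 0.835 times per kb at 25 to 49 bp, against 0.188 and 0.307 times per kb at background summits. At 50 to 99 bp the density was 0.453 per kb at members and 0.211 in the background. At 100 to 199 bp, where members had 29 occurrences and the background 75, it was 0.173 per kb at members and 0.144 in the background. Members that hold AGTGTTG had their summit at a median of -50 bp from the TSS, and those without it at -94.5 bp.

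**Figure D3:**
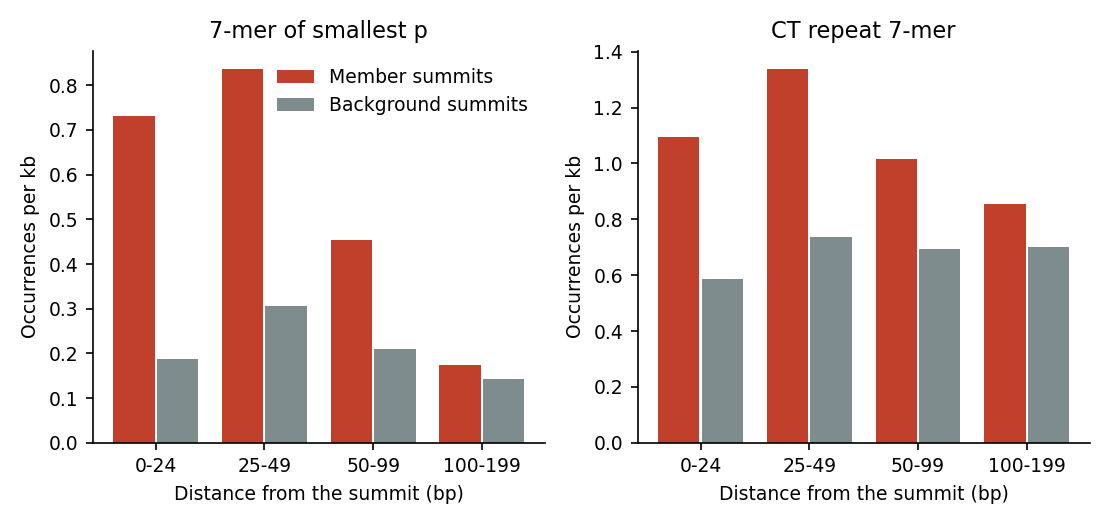
Occurrences per kb of the 7-mer of smallest p (left panel) and of the CT-repeat 7-mer of smallest p (right panel) by distance from the summit, at member summits (left bar) and background summits (right bar). At members the first has 0.731 and 0.835 per kb in the bins up to 49 bp and 0.173 per kb at 100 to 199 bp, and the second stays between 0.853 and 1.34 per kb. Both 7-mers were picked for their excess within 100 bp of these same summits.

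The other large kind was made of CT repeats and their relatives, with 7 of the 10 calls. CTCTCTC, which read on the other strand is the GAGA repeat GAGAGAG, was in 80 member windows (9.55%) and 147 background windows (5.63%), with an odds ratio of 2.39 (1.77 to 3.21, exact test, adjusted p = 7.38e-05). CTCTCGC had an odds ratio of 2.55, CTCGCGC of 3.16, CGCTCTC of 2.09, CTCGCTC of 2.18, AGAGCGA of 2.06 and AGAGAGC of 2.01, with adjusted p-values from 0.00208 to 0.0191 in the same exact test. In the exact test CTCGCGC was not called without replicate 1 (odds ratio 2.38, adjusted p = 0.271) or without replicate 2 (2.02, adjusted p = 0.330), and AGAGAGC not without replicate 1 (1.81, adjusted p = 0.162). At least 1 of the 7 was in 22.2% (19.5 to 25.1%) of member windows and 18.2% (16.7 to 19.7%) of background windows. In these unstratified shares the higher GC content of background windows is not held constant. Without GC strata, CTCTCTC was the only one of the 7 that the exact test called (odds ratio 1.77, adjusted p = 0.0138). The others had odds ratios from 1.24 to 1.78 without strata and were not called. CTCTCTC kept a density of 0.853 per kb at 100 to 199 bp from member summits, against 0.699 per kb in the background, while the AGTGTTG density at that distance was near its background.

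The tenth call, CTAGCGC, was rarer. It was in 22 member windows (2.63%) and 20 background windows (0.766%), with an odds ratio of 3.47 (1.88 to 6.38, exact test, adjusted p = 0.0307). In the exact test it was not called without replicate 1 (odds ratio 2.42, adjusted p = 0.321) or without replicate 2 (1.91, adjusted p = 0.626). Its strongest member was at CG8128, with a signal of 232. At least 1 of the 10 enriched 7-mers was in 294 member windows (35.1%) and in 23.9% of background windows. Both the AGTGTTG pair and a CT repeat were in 16 member windows (1.91%) and 23 background windows (0.881%).

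**Figure D4:**
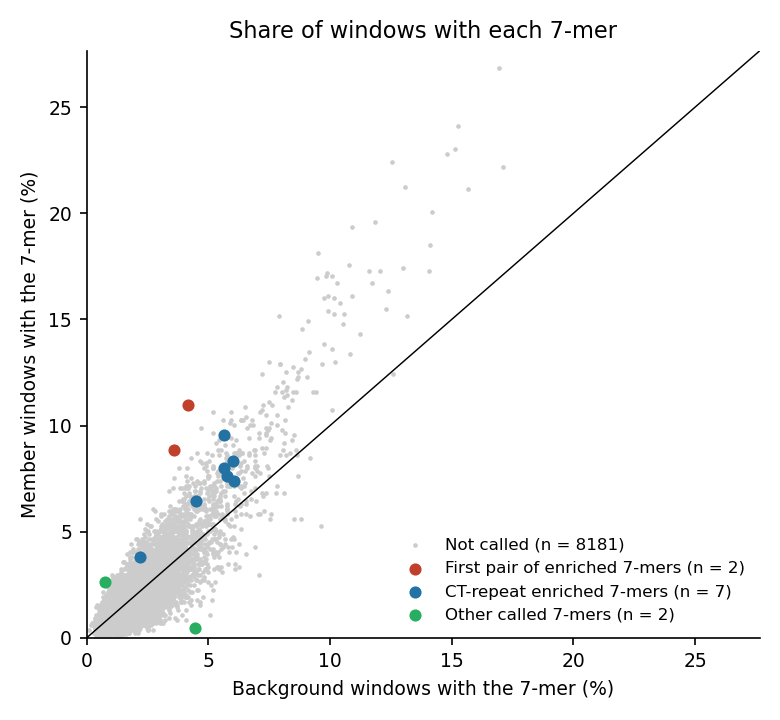
Percent of member windows against percent of background windows with each of the 8192 7-mers, with the line of equal shares. The pair that includes the 7-mer of smallest p lies above the line at 11.0% of member and 4.18% of background windows, and the 1 depleted 7-mer lies near the lower axis.

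The 7-mer calls did not hold in 2 smaller sets of summits. With both sets limited to upstream summits, 682 members and 1334 background summits, no 7-mer was called by the exact test (207 above and 209 below at an unadjusted p under 0.05), and the odds ratio of AGTGTTG was 2.07 (adjusted p = 0.165). Outside annotated exons, with 639 members and 1348 background summits, the exact test called no 7-mer either (221 above and 190 below at an unadjusted p under 0.05), and that odds ratio was 2.22 (adjusted p = 0.207). In both, all 10 enriched 7-mers kept an odds ratio above 1.5.

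A 7-mer named from an earlier analysis of all peaks of these data, CACAGTG, just missed the threshold. It was in 63 member windows (7.52%) and 94 background windows (3.60%), with an odds ratio of 2.04 (1.45 to 2.88, exact test, adjusted p = 0.0533), and in 2.25% of windows at all promoters. At internal promoters its share was 14.2%, above that of members by an interval that excludes 0, and at promoters of several genes it was 4.74%, below. Because CACAGTG was named from peaks that include these members, its p-values and its shares by signal are a description only. Its share was highest in the strongest of the 4 signal groups, while the share of AGTGTTG stayed between 10% and 11.9%. From the strongest to the weakest of the 4 signal groups, 13.8%, 4.31%, 6.19% and 5.74% of windows held CACAGTG, and among the 185 members in the strongest 1000 its odds ratio was 4.22 (exact test, adjusted p = 7.11e-04). AGTGTTG was in 10%, 11.0%, 11.9% and 11.0% of windows in the same groups, and among those 185 members its odds ratio was 1.65 (exact test, adjusted p = 1). CTCTCTC was in 6.67%, 6.70%, 12.9% and 11.96%. The strongest members with CACAGTG were TRAM, RluA-1, CG11151, the receptor phosphatase gene Ptp4E and the Polycomb group gene ph-p, with signals from 392 to 567.

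Signal also went with position and composition among the members. From the strongest to the weakest group, the median summit position was -134, -92, -69.5 and -59 bp from the TSS, and the mean GC content was 38.3%, 40.4%, 41.5% and 42.7%. The upstream share was 86.7%, 86.1%, 79.0% and 73.7%. Whether composition or position accounts for the distribution of any motif over these groups was not tested.

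Of the 19 listed motifs, read on both strands, 5 had a higher share and 3 a lower share in member windows than in background windows by a Newcombe interval that excludes 0. Within GC strata the odds ratio interval lay above 1 for 3 of them and below 1 for none. These were the GAGA repeat, CACAGTG, which was listed from earlier results of these data, and CGATA, the core shared by the DRE and the BEAF-32 site, which was in 39.4% of member and 30.04% of background windows (odds ratio 1.28, 1.08 to 1.51). Limited to upstream summits, CGATA had an odds ratio of 1.18 (0.971 to 1.44), and the GAGA repeat and CACAGTG kept an interval above 1.

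The full DRE, TATCGATA, was in 65 member windows (7.76%) and 119 background windows (4.56%), a difference of 3.20 points (1.35 to 5.34). Within GC strata its odds ratio was 1.23 (0.896 to 1.68), and its interval includes 1. The DRE differed in share between thresholded summits of the promoter classes. Its share was 7.76% at members, 1.36% at internal promoters, a difference of 6.39 points (3.98 to 8.55), and 12.2% at promoters of several genes, a difference of -4.44 points (-7.03 to -1.76). The GAGA repeat ran the other way, with 9.55% at members, 14.4% at internal promoters (difference -4.89 points, -9.25 to -1.001) and 1.67% at promoters of several genes (difference 7.88 points, 5.85 to 10.1). In these class shares GC content and distance to the TSS were not held constant, and the other classes have no background beside them. Whether the differences belong to the peaks or to the promoter classes was not tested. Core promoter motif 1, GGTCACAC, was in 6.21% of member windows and 4.60% of background windows (difference 1.61 points, -0.0778 to 3.59).

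No site of helix-loop-helix proteins on the list had a higher share in member windows than in background windows by an interval that excludes 0. The E-box CAGCTG was in 13.4% of member windows and 13.3% of background windows (difference 0.108 points, -2.42 to 2.88), and in 11.3% of windows at all promoters. CACGTG was in 2.51% of member and 2.80% of background windows. CACCTG was in 6.21% of member and 10.7% of background windows, and the N-box CACNAG, a site of Hairy and Enhancer of split proteins, in 21.8% of member and 26.4% of background windows. Both of these lower shares had a GC-stratified odds ratio interval that includes 1. The left part of the vertebrate REST site, TTCAGCACC, was in 1 member window and 5 background windows, and the right part, GGACAGC, in 9 member windows (1.07%) and 63 background windows (2.41%).

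The remaining motifs of the list had intervals of the GC-stratified odds ratio that include 1. TATAAA was in 24.3% of member and 19.6% of background windows, and the initiator core TCAGT in 35.1% of member and 32.5% of background windows. GTGGGAA, a Su(H) site, was in 3.58% of member and 2.99% of background windows, and CAGGTAG, a Zelda site, in 1.19% of member and 1.46% of background windows. GCCAT, the Pho core, was in 30.4% of member and 32.2% of background windows. CCAAT was in 32.6% of member and 34.02% of background windows. CCACACCC was in 3 member and 21 background windows, and the CRE TGACGTCA in 5 member and 13 background windows.

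Read from the promoters instead of the summits, 6 of the 19 listed motifs in the 200 bp before the most upstream TSS went with a higher share of promoters with a member, 3 with a lower share, and 10 had an interval that includes 0. With CACAGTG, 26.7% of 195 promoters had a member, against 9.37% without it. CACAGTG, which is among the 6, was listed from an earlier analysis of all peaks of these data, so its share is a description only. The share was 22.5% of the 160 promoters with core promoter motif 1, 20.3% of the 498 with a GAGA repeat, 18.2% of the 379 with a DRE and 12.9% of the 846 with CAGCTG, against 9.10 to 9.54% of the promoters without each. For CAGCTG, whose share in summit windows was close to the background, this difference between promoters with and without it was 3.45 points (1.25 to 5.97). With CGATA the share was 12.1%, against 8.70% without it. The share was lower with TATAAA anywhere in this stretch, at 7.97% against 10.8% without it (difference -2.83 points, -4.11 to -1.50). With TCAGT it was 8.49% against 10.5% without it (-2.003 points, -3.30 to -0.653), and with CCAAT 8.70% against 10.4% (-1.70 points, -3.001 to -0.348). As a description, 35 of the 120 promoters with the 8-mer CAGTGTTG, which was drawn from these members, had a member. Most promoters with any of these motifs had no member. GC content was not held constant in these shares.

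A TATA box marked promoters with few members. TATAAA stands 40 to 20 bp before the TSS in 671 promoters, of which 24 (3.58%) had a member, against 10.4% of the other 7386, a difference of -6.78 points (-8.15 to -4.96). The initiator core TCAGT at -5 to 6 bp had an interval that includes 0, with a member at 10.2% of promoters that have it and 9.74% of those that do not (0.473 points, -1.48 to 2.74).

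Genes with a member came from every list of genes examined. The 11 lists, written by hand with earlier results of these data known, hold 405 genes, and each list had a share of promoters with a member above the 9.79% of all promoters. In 5 lists the Wilson interval excludes that share. Named genes as a whole had a member at 13.6% of their promoters, and the interval of 4 lists excludes that share, the mitochondrial list being the exception among the 5. Below 13.6% were the proneural list (13.3%), the muscle list (11.8%) and the list of Notch, Wnt and other pathways (11.5%). Whether gene length, number of TSSs or naming account for the list shares was not tested.

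**Figure D5:**
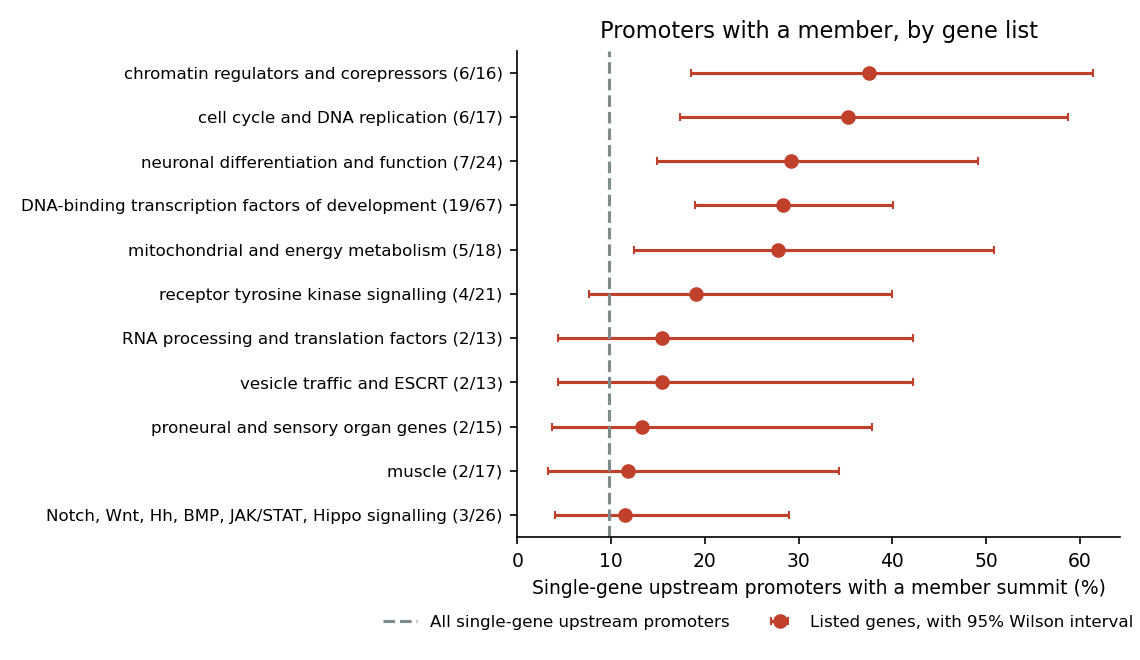
Share of single-gene upstream promoters with a member for the 11 gene lists, with 95% Wilson intervals and, in brackets, the genes with a member of those with such a promoter; the dashed line is the 9.79% of all 8057 promoters. The chromatin list is highest at 37.5%, and the list of Notch, Wnt and other pathways lowest at 11.5%. The share of all named genes, 13.6%, is not drawn.

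Of the chromatin regulators and corepressors, 6 of 16 genes with such a promoter (37.5%, 18.5 to 61.4%) had a member. The strongest were at ph-p, a Polycomb group gene with a signal of 392 and a summit 399 bp downstream of the TSS, at the insulator protein gene BEAF-32 with 182 and at gro, which encodes the corepressor Groucho, with 182. Ranks were 210 in replicate 1 and 130 in replicate 2 at ph-p, and 870 in replicate 1 and 1267 in replicate 2 at gro. In the cell cycle and DNA replication list, 6 of 17 promoters (35.3%, 17.3 to 58.7%) had a member. These included fzr, an activator of the anaphase-promoting complex with a signal of 111, the spindle checkpoint gene mad2 with 106 and PolA1, the DNA polymerase alpha gene, with 99.9.

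Neuronal genes had a member at 7 of 24 promoters (29.2%, 14.9 to 49.2%). The strongest, at elav, which encodes an RNA-binding protein of neurons, had a signal of 466 and lay 271 bp upstream, ranking 102 in replicate 1 and 134 in replicate 2. It was followed by the zinc finger gene scrt with 139 and the guidance gene Sema1a with 94.3. Transcription factors of development had a member at 19 of 67 promoters (28.4%, 19.0 to 40.1%), led by Sox14 with 917, Atf3 with 578 and cabut (cbt), a zinc finger factor gene, with 455. In the mitochondrial and energy metabolism list, 5 of 18 (27.8%, 12.5 to 50.9%) had one, led by the glycolytic gene Gapdh2 with 362, the mitochondrial single-strand binding protein gene mtSSB with 199 and Tpi with 126.

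In the other 6 lists the interval includes the share of all promoters. Receptor tyrosine kinase signalling had 4 of 21, among them InR, the insulin receptor gene, with 170.1, aos, an inhibitor of the EGF receptor, with 120.3, and bnl, an FGF ligand gene, with 96.1. RNA processing and translation had 2 of 13, at eEF2 with 141 and Thor with 138. Vesicle traffic had 2 of 13, at Vps28 with 106 and Rab11 with 73.6. Muscle genes had 2 of 17, at the titin-like gene sls with 302 and at zfh1 with 124. The list of Notch, Wnt, Hedgehog, BMP, JAK/STAT and Hippo signalling had 3 of 26, at the Wnt antagonist gene nkd with 192, at brk, a repressor of Dpp targets, with 164, and at the Hedgehog receptor gene ptc with 146.

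The proneural and sensory organ list, closest to the known role of charlatan, had 2 of 15 (13.3%, 3.74 to 37.9%). They were da, which encodes the common partner of proneural proteins, with a signal of 108 and a summit 62 bp upstream, and hairy (hry in the annotation), a repressor of proneural genes, with 78.8 and a summit 27 bp upstream. Ranks at da were 3032 in replicate 1 and 2214 in replicate 2. A further 9 of the 15, chn itself among them, had a background summit only, against 26.3% of all 8057 promoters. This was not particular to the list. Such promoters were 17 of 26 in the list of Notch, Wnt and other pathways and 11 of 21 in receptor tyrosine kinase signalling. They were 33 of 67 among transcription factors of development, 6 of 24 among neuronal genes and 3 of 13 in RNA processing and translation. Among all named genes the share with a member was 13.6%. The upstream promoter of chn itself had no member. A background summit with a signal of 71.3 lay 28 bp downstream of its TSS and ranked 4553 in the pooled list, just below the thresholded set, and the nearest thresholded summit lay 671 bp upstream with a signal of 134.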

How the data were processed

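Per the labels, chromatin was sonicated to 200 to 800 bp. Per the deposited inventories, the authors called peaks on each replicate and on the pool against 1 control and derived the thresholded set from these lists. Which aligner and peak caller were run is not given in the sources used here, and the control was not analysed. The deposited signal value ranked peaks within a list, since the deposited −log10 q-value saturates. Positions are on dm6, with the Release 6 genome from RefSeq and Ensembl annotation BDGP6.54. Windows reached 100 bp to each side of a summit, and 24 GC strata were shared by both sets. Odds ratios are Mantel-Haenszel estimates with Robins-Breslow-Greenland intervals. The members, motifs and gene lists were chosen with earlier results of these data known. Genes were named by rule: the 15 strongest and 3 weakest members, 3 per list, the 3 genes with most summits (ties by signal), and 3 on each side of the limit. One gene that the rule would name is not reported here. The strongest members with a motif were chosen after their values were seen. The exact test was tested on simulated data. Computation used Python 3.11.15, numpy 2.4.6, scipy 1.17.1 and pandas 2.3.3.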

Additional observations from a re-analysis of the deposited data

How the results depend on the processing

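No paired analysis was possible because there is 1 group. With a limit of 250 bp to the TSS, 8.04% of promoters had a member, 58.1% of members lay within 100 bp, and 4 7-mers were enriched and 0 depleted (213 below an odds ratio of 1 at an unadjusted p under 0.05 in the exact test). With a window of 2000 bp for 1 gene these counts were 3 and 0 (212 at unadjusted p). With a tolerance of 100 bp to the most upstream TSS (231 at unadjusted p), and with strata of GC and distance together (232), 0 were depleted. The 1000 strongest peaks gave 185 members, 2.23% of promoters, 87.0% upstream, 29.7% within 100 bp, 1 enriched 7-mer (CACAGTG) and 0 depleted (75), and 83.8% of these members were among the 1000 strongest of both replicates. Summits counted as shared within 50 bp or 200 bp gave 62.2% and 77.9% of members in the strongest peaks of both replicates. Windows of 50 bp to each side left 1 enriched 7-mer (AGTGTTG) and 0 depleted (184). Without strata, 139 were enriched and 110 depleted, with 4 of the 10 enriched ones among them. Limited to upstream summits or to summits outside exons, both chosen after seeing the data, 0 were enriched and 0 depleted. From 1 replicate alone, 14 to 16 were enriched and 2 depleted. Of the 10 enriched ones, 7 were called without replicate 1 and 8 without replicate 2. CTAGCGC and CTCGCGC were called in neither, and AGAGAGC and the depleted CTCCTCC not without replicate 1. In these sets 77.6 to 80.4% of members lay upstream. No odds ratio of a named 7-mer crossed 1 in these settings. The lists hold no read counts, so a missing summit may be one below detection.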

Other observations

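The base before it was C in 55.3% of 103 occurrences in member windows and in 39.3% of 112 in background windows, which gives CAGTGTTG. The fourth base after it was A in 68.9% of occurrences at members and 56.2% in the background. These positions were picked after seeing the values and have no test. The 7-mer read in the direction of its gene in 42 of the 103 member occurrences (40.8%, 95% Wilson interval 31.8 to 50.4%) and in 45.5% of the background occurrences (36.6 to 54.8%). Its median position was -49 bp from the TSS at members and -37.5 bp in the background, so it sat near the TSS in both. CACAGTG had a median position of -83.5 bp at members and -40 bp in the background. Upstream of the TSS lay 82.4% of its 68 member occurrences and 57.7% of its 97 background occurrences. Occurrences were counted only in windows around summits, so their positions in part follow the summits. Of the summits themselves, 81.4% at members and 51.1% in the background lay upstream.

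The strongest members with CAGTGTTG were CG14100, with a signal of 1972, RpL23A with 358.0, CG10555 with 301, the phosphoinositide 3-kinase adaptor gene Pi3K21B with 276 and CG12316 with 266. Of the 55 members with CAGTGTTG, 78.2% were among the strongest 4537 of both replicates, and of the members without it 72.4%. For the GAGA repeat these shares were 62.5% with it and 73.9% without it.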
